A study of Mus musculus with 23 samples.

Results

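The Sox2-negative cells of the mouse incisor labial cervical loop were compared between 2 sorts, called batch A and batch B. The members were the 6 batch A and 4 batch B libraries of Sox2-negative cells, 10 of the 23 RNA-seq libraries in the series, and the 15201 of 54347 genes that passed a count filter on these 10 libraries. Every mouse carried the Sox2-GFP allele, in which green fluorescent protein is made from the endogenous Sox2 promoter, and was at P2, the second day after birth. The labial cervical loop (LaCL) of the lower incisor was cut out, digested with Collagenase and Neutral Protease, and separated by fluorescence into Sox2-positive cells, called dental epithelial stem cells by the labels, and Sox2-negative cells. Libraries were made by Smart-seq2 and Tn5 tagmentation. The labels state that the batches were run on separate days and on different mice, so the day, the mice and the sort cannot be told apart. Whether the libraries within a batch are separate animals or aliquots of a single sort is not stated, so the p-values measure the spread between these libraries, which may be technical. Cells sorted as lacking the fluorescence were taken as Sox2-negative, and the boundaries of the gate are not given in the sources used here.

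The labial cervical loop is the epithelial fold at the growing end of the rodent incisor. Its epithelial stem cells give rise to ameloblasts, which secrete enamel proteins, and it is wrapped by neural crest derived mesenchyme: dental papilla on the inner side, dental follicle and the bone of the socket on the outer side. Vessels, blood, resident immune cells and nerves run through that mesenchyme, so a piece cut from a newborn jaw can carry all of these into a fluorescence-negative sort. The marker lists below were drawn up for these cell types. The share of counts taken by a list in bulk RNA depends on both the number of cells and the RNA in each, and fewer cells of a type and less RNA per cell cannot be told apart.

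Library totals were 3711969 to 4831379 counts in batch A and 6397579 to 9541800 in batch B. Sox2 itself was listed at 0 in 5 of the 6 batch A and 3 of the 4 batch B Sox2-negative libraries, and at 0.252 and 1.11 CPM (the count divided by the scaled library total in megacounts) in the remaining ones, against 2.55 to 20.4 CPM in the 13 Sox2-positive libraries. Genes with at least 5 counts numbered 15731 ± 380 (SD, n = 6) in batch A and 17302 ± 818 (SD, n = 4) in batch B, a difference that fell to 219 genes (adjusted p = 0.438, exact permutation test) once all libraries were thinned to the smallest total. Libraries 1 and 2 of batch B stood apart from its libraries 3 and 4. They held 23720 and 22831 genes with at least 1 count against 20520 and 20312, and 1.16% and 1.17% of counts in mitochondrially encoded protein genes against 1.72% and 1.62%. An rRNA gene of chromosome 17, CT010467.1, took 9.85% and 10.6% of counts in those libraries, 7.44% and 8.23% in libraries 3 and 4, and 4.48% ± 0.248 (SD, n = 6) in batch A. Counts of called genes below are therefore also given without libraries 1 and 2 of batch B where they moved by more than 1.5 times. In the Sox2-positive cells of batch B, libraries 1 and 2 also differed from libraries 3 to 7. There CT010467.1 went the other way, at 5.97% and 6.03% of counts against 7.92%, 8.67%, 8.29%, 9.20% and 8.68%. The general epithelial list took 0.674% and 0.657% in those 2 libraries, against 0.886% to 0.954%.

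In batch B, globin and Alas2 transcripts of red blood cells made up a larger part of the Sox2-negative RNA, while mast cell, granulocyte, macrophage, antigen-presenting and endothelial transcripts made up a smaller part. The main fibrillar collagens of mesenchyme (Col1a1, Col1a2 and Col3a1) were not called, with log2 differences between -0.12 and 0.00, while 5 of 13 tested dental papilla genes and the keratin gene Krt5 were called higher in batch B. With edgeR's quasi-likelihood test over the 10 libraries, 933 of 15201 genes were called at an adjusted p under 0.05 (6.14%), of which 408 were higher in batch B (2.68%) and 525 lower (3.45%). Counts of called list members below are to be read against these shares. When counts were scaled by library total only, the median over all genes moved by -0.127 on the log2 scale and 26.9% of the called genes were higher, against 43.7% with TMM scaling. The number called was 519 without library 1 of batch B, 541 without library 2 and 276 (of 16679 tested) without both. List counts given below without both stand against that smaller total. No called gene changed sign in any of these fits. For 1474 genes (9.7%) the libraries of the batches did not overlap.

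**Figure D1:**
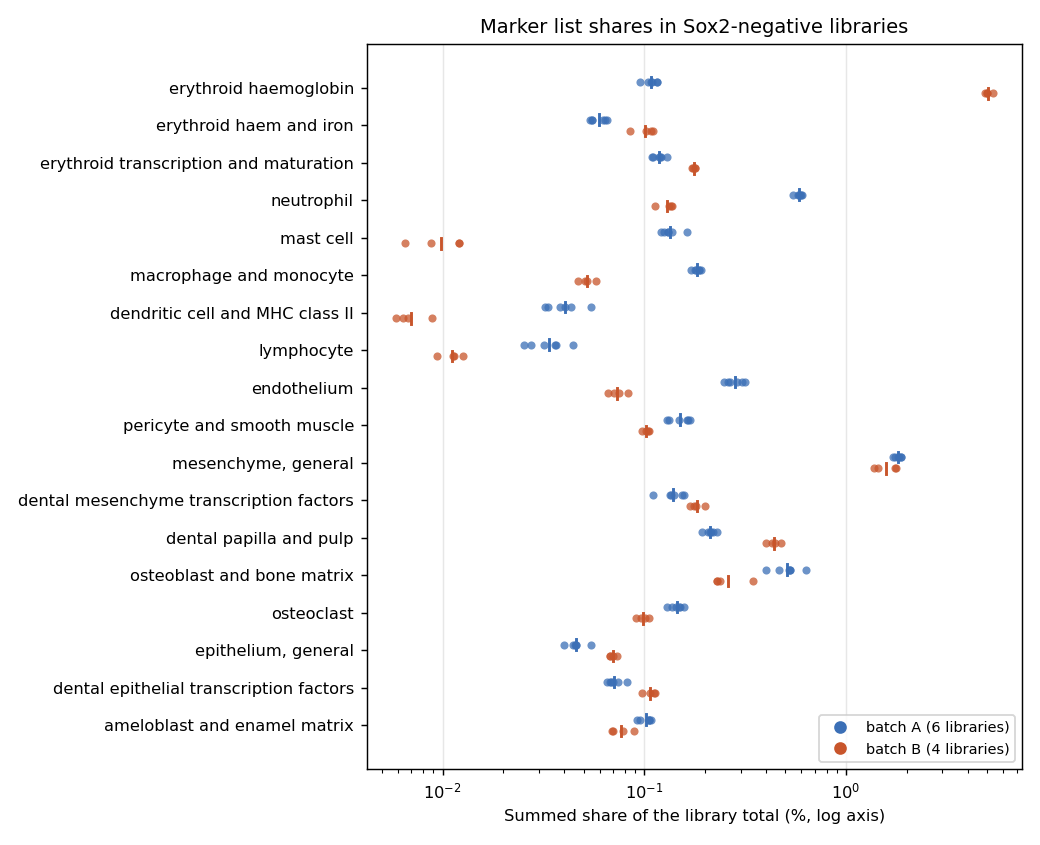
Summed share of each marker list in the library total (percent, log axis) for the 6 batch A (blue) and 4 batch B (orange) Sox2-negative libraries; points are libraries and vertical bars are batch means. The haemoglobin list moved from a mean of 0.108% to 5.05%, while the mast cell list moved from 0.135% to 0.00986% and the endothelial list from 0.280% to 0.0735%.

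Adult haemoglobin genes had the largest shift of any list. The 4 adult alpha and beta globin genes, which encode the chains of the adult oxygen carrier, together took 0.0956% to 0.116% of counts in batch A (median 0.109%), and 5.00%, 5.33%, 4.98% and 4.91% in the 4 libraries of batch B. Every batch B library therefore lay far above every batch A library, by 46.8-fold on the means (0.108% ± 0.00758, SD, n = 6, against 5.05% ± 0.187, SD, n = 4). All 4 were called higher (against 2.68% of all tested genes), as they were without libraries 1 and 2 of batch B. The other members of the list in the table did not pass the count filter. Among them the embryonic globins Hbb-y and Hbb-bh1 were at 0 in all 4 batch B libraries and at no more than 5.17 and 1.55 CPM in batch A.

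Hba-a2 (chr11:32296489-32297298, GRCm38, plus strand) lay between 299 and 353 CPM in batch A (median 340) and at 20000, 22260, 17450 and 17820 CPM in batch B. Its log2 difference was 5.86 ± 0.08 (SE; adjusted p = 2.2e-15). Hba-a1 (chr11:32283511-32284465) differed by 5.40, Hbb-bs (chr7:103826534-103828096) by 5.85 and Hbb-bt (chr7:103812524-103813996) by 5.46. The members of each pair are nearly identical copies, so how their reads were divided within a pair is uncertain, while the sum over the list is not affected by that split.

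Genes of haem synthesis and red cell maturation moved with the globins in part. Alas2 (chrX:150547375-150570638), the erythroid form of the first enzyme of haem synthesis, was at 0 to 12.9 CPM in batch A (median 1.79) and at 342, 423, 250 and 237 CPM in batch B, with no overlap. The log2 difference was 6.08 ± 0.76 (SE; adjusted p = 0.00025), the highest among the called genes that met the level and overlap criteria for naming. In the haem and iron list, 2 of the 14 tested members rose (1 without libraries 1 and 2 of batch B) and 0 fell, and the median was 0.27. Of all tested genes 2.68% were called higher. Tent5c, a poly(A) polymerase in no list, was at 0 to 8.56 CPM in batch A (median 4.76) and at 81.9, 60.4, 80.4 and 71.0 CPM in batch B, again with no overlap (log2 4.20 ± 0.69, SE; adjusted p = 0.0022).

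Of the 15 tested members of the erythroid transcription and maturation list, 4 rose (2 without libraries 1 and 2 of batch B) and 0 fell, and the list median was 0.14 against -0.03 over all genes. Ube2l6, a ubiquitin-conjugating enzyme, rose by 2.32, and Prdx2, a peroxide scavenger plentiful in red cells, by 0.75 on the log2 scale. Bpgm, which makes the haemoglobin regulator bisphosphoglycerate and was chosen after its values were seen, rose by 1.56, and Mkrn1, a ubiquitin ligase, by 1.53. The call of Ube2l6 was lost without libraries 1 and 2 of batch B (2.43, adjusted p = 0.056).

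Genes of the red cell membrane and of early erythroid cells were mostly not called. Of 12 tested genes of the membrane and cytoskeleton, 1 rose (Epb41, log2 1.30, with an adjusted p of 0.071 without libraries 1 and 2 of batch B) and 0 fell, with a list median of -0.29. Slc4a1, the red cell anion exchanger, was at 2.43 to 12.1 CPM in batch A (median 6.36) and at 3.77, 5.10, 3.96 and 7.88 CPM in batch B, and its log2 difference was -0.40 ± 0.61 (SE; adjusted p = 0.79). Tal1, a transcription factor in the erythroid transcription and maturation list, differed by -1.82 ± 1.11 (SE), while 10 of the 15 tested members of that list had positive differences. The erythroid regulators Gata1 and Klf1 did not pass the count filter and reached at most 1.56 and 1.13 CPM in batch B. These 4 genes were chosen after their values were seen.

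Because the globins and Alas2 moved together, the 250 bases before their start sites were read for GATAA, the core of the GATA factor motif, and CACCC, the core of the motif bound by Klf1, on both strands. RefSeq promoter entries (GRCm38.p6) matched 10 of the 11 erythroid list genes called higher, with 13 start sites. The 4 globins and Alas2 each held both motifs, and the other 8 start sites held no GATAA. Over all 32851 promoters of the same length, 22.6% held GATAA, 52.0% held CACCC and 10.1% held both, and a match is a description of the letters only. An alpha and both beta globin sequences are shown for comparison, 5′ to 3′ on the gene's strand, with either motif or its complement in capitals.
Hba-a2 (chr11:32296242-32296491, plus strand): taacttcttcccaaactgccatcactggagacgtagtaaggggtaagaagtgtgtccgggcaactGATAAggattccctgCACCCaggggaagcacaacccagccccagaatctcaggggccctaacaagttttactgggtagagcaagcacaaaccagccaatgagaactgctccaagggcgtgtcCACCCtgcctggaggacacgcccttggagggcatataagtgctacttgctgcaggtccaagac
Hbb-bs (chr7:103827929-103828178, minus strand): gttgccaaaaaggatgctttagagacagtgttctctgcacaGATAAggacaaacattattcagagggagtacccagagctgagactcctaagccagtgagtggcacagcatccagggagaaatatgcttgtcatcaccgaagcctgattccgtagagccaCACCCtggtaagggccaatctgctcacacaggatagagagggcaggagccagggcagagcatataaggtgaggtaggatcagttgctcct
Hbb-bt (chr7:103813924-103814173, minus strand): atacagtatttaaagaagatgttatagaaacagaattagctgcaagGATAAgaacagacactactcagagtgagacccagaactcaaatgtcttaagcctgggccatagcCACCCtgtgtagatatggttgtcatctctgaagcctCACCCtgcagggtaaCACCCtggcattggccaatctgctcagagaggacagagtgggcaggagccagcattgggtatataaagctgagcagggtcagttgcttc
In Hba-a2 the GATAA lay 185 bases before the start site, in Hbb-bs 209 and in Hbb-bt 204. The alpha globin pair was identical at 247 of 253 aligned columns (97.6%) and the beta globin pair at 185 of 261 (70.9%).

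Mast cell genes had the lowest median of the immune lists. The list, made of granule proteases, receptors and regulators of tissue mast cells, took 0.122% to 0.163% of counts in batch A (median 0.131%) and 0.00877%, 0.0121%, 0.00651% and 0.0121% in batch B, which is 13.7-fold lower on the means. Of its 13 tested members 6 fell and 0 rose, the same count as without libraries 1 and 2 of batch B, and the list median was -2.86. All 6 that fell were granule proteases. A further 6 listed members did not pass the count filter. Genes could pass it on their batch A counts alone, so the low list median can follow in part from the filter. Tpsb2, a tryptase (chr17:25366305-25369098), was at 417 to 540 CPM in batch A (median 439) and at 4.99, 11.2, 8.54 and 3.12 CPM in batch B. It thus lay 66.2-fold lower with no overlap (log2 -6.05 ± 0.31, SE; adjusted p = 3.1e-08).

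The mast cell carboxypeptidase Cpa3 fell by 6.43 on the log2 scale, from a median of 69.5 CPM to between 0 and 1.74 CPM. The chymases Mcpt4, Cma1, Mcpt2 and Mcpt1 fell by 5.15, 4.69, 3.66 and 3.32. They belong to one gene cluster with similar sequences, so their separate values are uncertain where reads were shared. Kit, the receptor for stem cell factor, which other cells also carry, was at 16.9 to 66.9 CPM in batch A (median 26.0) and at 16.1, 20.7, 14.4 and 50.4 CPM in batch B (log2 -0.37 ± 0.47, SE), and was chosen after its values were seen. Cd200r3, an activating receptor known from mast cells and basophils, was among the 12 most lowered named genes, with a log2 difference of -4.27. Without libraries 1 and 2 of batch B it was -4.31 with an adjusted p of 0.067.

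RefSeq promoter entries matched 4 of the 6 mast cell genes that fell, and all 4 held GATAA within 250 bases of the start site. Over all promoters 22.6% did. The sequences of Cpa3 and Mcpt4, in which the same motifs are in capitals, are shown to set beside those of the globins.
Cpa3 (chr3:20242182-20242431, minus strand): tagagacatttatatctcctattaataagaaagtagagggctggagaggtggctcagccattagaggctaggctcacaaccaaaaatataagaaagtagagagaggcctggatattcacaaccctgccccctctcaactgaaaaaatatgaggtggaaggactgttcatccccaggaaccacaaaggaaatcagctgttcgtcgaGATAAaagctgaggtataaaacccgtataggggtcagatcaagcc
Mcpt4 (chr14:56062311-56062560, minus strand): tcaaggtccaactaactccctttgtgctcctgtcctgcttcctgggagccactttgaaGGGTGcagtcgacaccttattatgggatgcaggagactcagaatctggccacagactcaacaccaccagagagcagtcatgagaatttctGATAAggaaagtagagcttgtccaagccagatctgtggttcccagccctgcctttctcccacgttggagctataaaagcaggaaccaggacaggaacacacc
The motif lay 45 bases before the start site in Cpa3 and 102 in Mcpt4. GATAA thus stood before genes that rose between the sorts and before genes that fell.

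**Figure D2:**
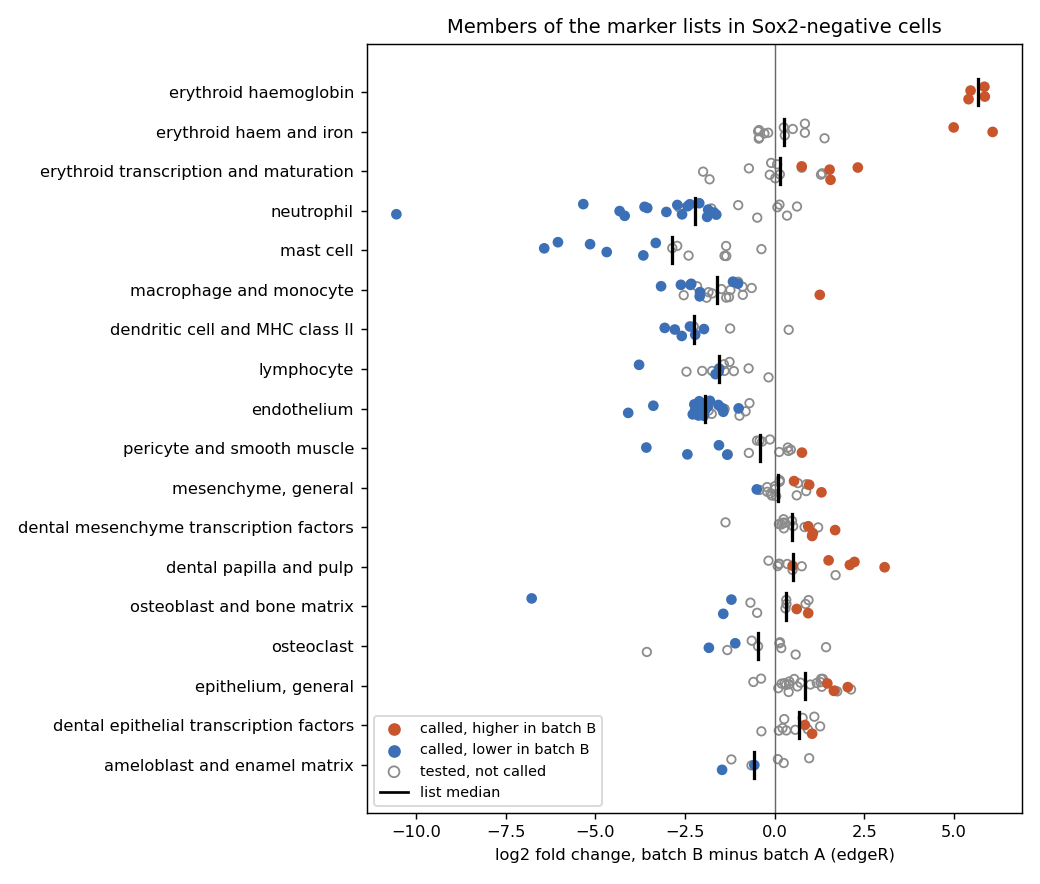
Log2 fold change (batch B minus batch A, edgeR) of every tested member of 18 marker lists in Sox2-negative cells; filled points are called at an adjusted p under 0.05 (orange higher, blue lower), open points are not called, and black bars are list medians. All 30 endothelial members lie left of 0 and all 4 tested haemoglobin members lie beyond 5.

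Neutrophil genes were lower in batch B, but not all of them. The list took 0.548% to 0.603% of counts in batch A (median 0.591%) and 0.132%, 0.137%, 0.135% and 0.114% in batch B, 4.51-fold lower on the means. Of 24 tested members 16 fell and 0 rose, 14 fell without libraries 1 and 2 of batch B, and the list median was -2.24. The most counted members were S100a8 and S100a9, the calcium-binding pair that fills the neutrophil cytoplasm. S100a8 was at 1120 to 1435 CPM in batch A (median 1371) and at 189, 234, 236 and 235 CPM in batch B (log2 -2.58 ± 0.11, SE; adjusted p = 3.5e-09), and S100a9 fell by 2.37.

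Genes of granule proteins laid down while neutrophils mature in the marrow fell as well. Ngp was at 615 to 969 CPM in batch A (median 783) and at 34.7, 35.2, 25.3 and 62.7 CPM in batch B, with no overlap (log2 -4.33 ± 0.25, SE; adjusted p = 9.0e-08). The cathelicidin gene Camp fell by 4.18 and the serine protease gene Ctsg by 3.63. Chil3, a chitinase-like protein, was at 22.96 to 122 CPM in batch A (median 93.7) and had counts in only 1 batch B library, at 0.111 CPM, so that no fold is given (adjusted p = 1.3e-06). Elane and Mpo, 2 further enzymes of the primary granules chosen after their values were seen, fell by 2.72 and 1.69.

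The 4 members with positive differences were not called. Mmp9, a gelatinase that osteoclasts also make, was at 402 to 523 CPM in batch A (median 458) and at 550, 528, 562 and 377 CPM in batch B (log2 0.13 ± 0.13, SE; adjusted p = 0.64). The receptor genes Csf3r and Cxcr2 and the secreted Retnlg, chosen after their values were seen, differed by 0.62 ± 0.53, 0.34 ± 0.41 and 0.07 ± 0.32 (SE). The libraries of all 4 overlapped between the batches.

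Macrophage and monocyte genes took 0.171% to 0.190% of counts in batch A and 0.0471% to 0.0577% in batch B. Of 22 tested members 8 fell and 1 rose, with a list median of -1.62, and 4 fell without libraries 1 and 2 of batch B. Lyz2, the lysozyme of macrophages and neutrophils, was at 564 to 672 CPM in batch A (median 594) and at 76.8, 67.2, 51.4 and 72.4 CPM in batch B. No library overlapped (log2 -3.17 ± 0.14, SE; adjusted p = 4.3e-09). The signalling adaptors Fcer1g and Tyrobp, shared by most myeloid cells, fell by 2.33 and 2.08. Apoe, which several cell types make, fell by 1.16, and without libraries 1 and 2 of batch B the value was -0.86 (adjusted p = 0.223).

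Antigen presentation genes also fell. In the list of dendritic cell and MHC class II genes, 6 of 9 tested members fell and 0 rose, with a median of -2.26 and a 5.80-fold lower share of counts on the means. Another 6 listed members did not pass the count filter. Cd74, the invariant chain of MHC class II, was at 72.3 to 186 CPM in batch A (median 123) and at 11.97, 14.4, 20.4 and 11.5 CPM in batch B (log2 -3.07 ± 0.32, SE; adjusted p = 6.7e-05). The class II chains H2-Eb1, H2-Aa and H2-Ab1 fell by 2.79, 2.36 and 1.97.

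Lymphocyte genes had fewer calls. All 13 tested members had negative log2 differences and 4 were called lower (Igll1, Igkc, Ptprc and Ighm), with a median of -1.55. The other 16 of the 29 listed members did not pass the count filter. A gene could pass it on its batch A counts alone, so the shared sign can follow in part from the filter. The number called was 2 without library 2 or 6 of batch A, 1 without library 3 of batch A or without any 1 of the batch B libraries, and 1 without libraries 1 and 2 of batch B. In the megakaryocyte and platelet list 0 of 5 tested members were called. The platelet chemokine gene Pf4 differed by -1.90 ± 0.56 (SE; adjusted p = 0.065) and the platelet receptor gene Gp1bb by 0.83 ± 0.29 (SE; adjusted p = 0.12). Gngt2, a G protein subunit outside the lists and one of the 12 most lowered named genes, fell by 3.79.

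Endothelial genes fell almost throughout the list. Their share of counts was 0.249% to 0.314% in batch A (median 0.276%) and 0.0747%, 0.0826%, 0.0657% and 0.0708% in batch B, 3.81-fold lower on the means. All 30 members passed the count filter and had negative log2 differences, 24 were called lower and 0 higher, and the list median was -1.95. The number called lower was 13 without libraries 1 and 2 of batch B. Egfl7, a secreted endothelial protein, was at 282 to 454 CPM in batch A (median 423) and at 100, 172, 90.7 and 98.8 CPM in batch B. The batches did not overlap (log2 -1.81 ± 0.20, SE; adjusted p = 0.00011).

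Cdh5, the cadherin of endothelial junctions, fell by 2.11, the VEGF receptor gene Kdr by 1.44 and the sialomucin gene Cd34 by 1.49. Pecam1, the classical endothelial adhesion molecule, chosen after its values were seen, fell from a median of 105 CPM to 32.8, 24.8, 27.9 and 13.1 CPM. The largest called difference in the list was that of Esm1, made by sprouting tip cells (-4.09). That call was lost without library 1 (-3.89, adjusted p = 0.060) or library 2 (-3.79, adjusted p = 0.054) of batch B. The smallest was that of Sox18 (-1.01), whose call was lost without any single library except 4 or 6 of batch A. Of the lymphatic list, the defining genes Prox1 and Lyve1 did not pass the filter, and 1 of 4 tested genes rose (Pdpn, 1.21, also made by mesenchyme) and 1 fell (Nts, -1.20).

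Of 15 tested genes of pericytes and smooth muscle 4 fell and 1 rose, with a median of -0.42. Rgs5, a regulator of G protein signalling typical of pericytes, was at 277 to 548 CPM in batch A (median 442) and at 89.8, 74.9, 85.4 and 59.1 CPM in batch B (log2 -2.44 ± 0.23, SE; adjusted p = 2.3e-05). Higd1b, which also marks pericytes, fell by 3.58 and the adhesion molecule gene Mcam by 1.32. Acta2, the smooth muscle actin that dental follicle and pulp cells also make, rose by 0.76, from a median of 122 CPM to 194, 198, 229 and 236 CPM, and was not called without libraries 1 and 2 of batch B (0.89, adjusted p = 0.051). The growth factor receptor gene Pdgfrb, chosen after its values were seen, differed by -0.13 ± 0.15 (SE; adjusted p = 0.70). The list's share of counts was 0.129% to 0.168% in batch A and 0.0974% to 0.105% in batch B, and without Rgs5 the ratio of batch B to batch A was 0.880 in place of 0.678.

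**Figure D3:**
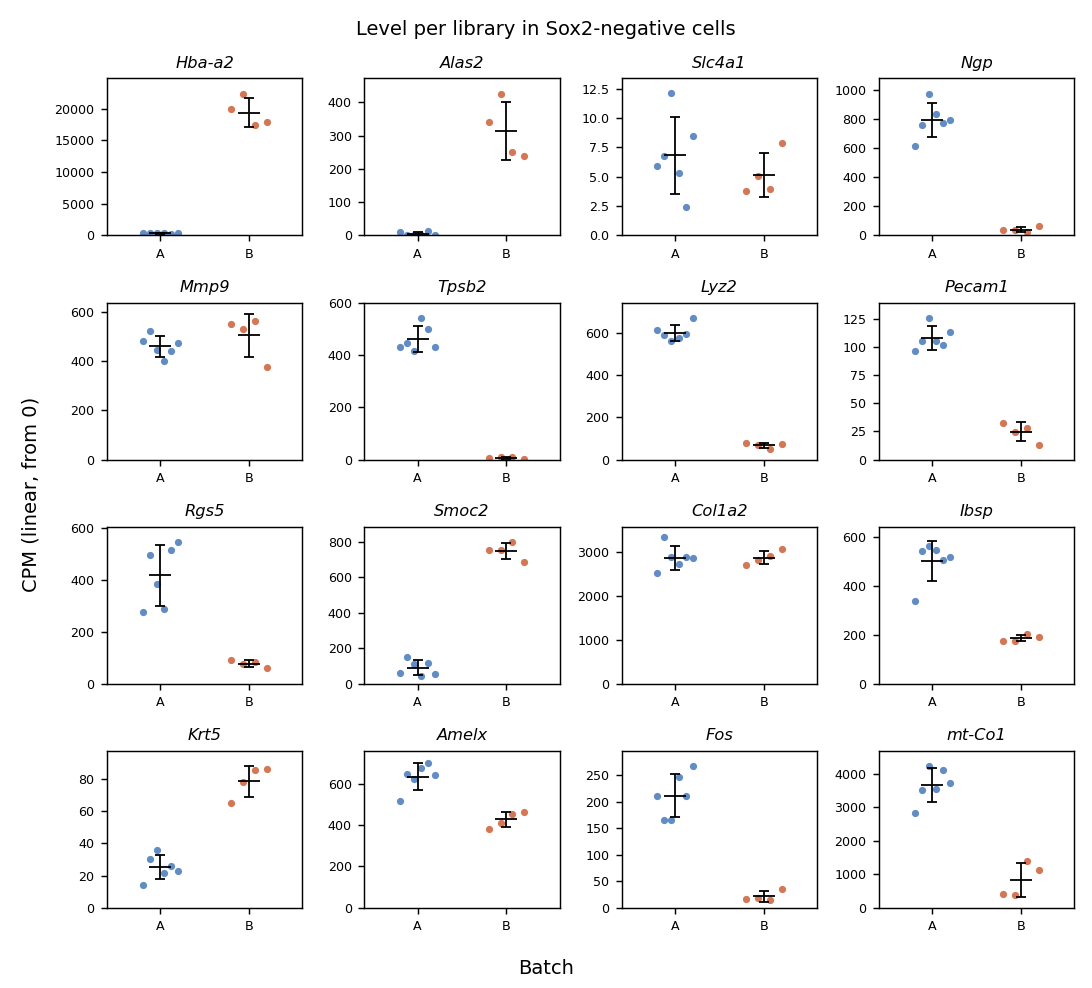
CPM of 16 genes in each Sox2-negative library (6 of batch A, blue; 4 of batch B, orange), on linear axes that start at 0; black bars are the mean and 1 SD. Hba-a2, Alas2, Smoc2 and Krt5 are higher in every batch B library, Ngp, Tpsb2, Lyz2, Pecam1, Rgs5, Ibsp, Amelx, Fos and mt-Co1 are lower in every one, and Slc4a1, Mmp9 and Col1a2 overlap.

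Of the 4 most counted genes of the general mesenchyme list, Sparc was called and the collagens Col1a1, Col1a2 and Col3a1 were not. The list was the most abundant of the cell type lists in batch A, with 1.71% to 1.87% of counts (median 1.82%), against 1.44%, 1.38%, 1.76% and 1.75% in batch B. All 18 members passed the filter, 3 were called higher (1 without libraries 1 and 2 of batch B) and 1 lower (2 without library 3 of batch A or library 3 of batch B), and the list median was 0.09. Col1a1, the major collagen of bone, dentin and fibrous tissue, was at 5681 to 6747 CPM in batch A (median 5868) and at 5200, 5023, 5939 and 6591 CPM in batch B (log2 -0.08 ± 0.08, SE; adjusted p = 0.65). Col1a2 differed by 0.00 ± 0.08 and Col3a1 by -0.12 ± 0.24 (SE). In Col3a1 libraries 1 and 2 of batch B were at 1063 and 895 CPM while libraries 3 and 4 were at 2441 and 2115 CPM.

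Single mesenchymal genes did change. Pdgfra, the growth factor receptor used as a fibroblast marker, rose from a median of 133 CPM to 306, 299, 320 and 315 CPM (log2 1.30 ± 0.16, SE; adjusted p = 0.00022). Sparc, a collagen-binding matrix protein that is abundant in bone and vessels, fell by 0.50, from a median of 2914 CPM to 1994, 2114, 2037 and 1867 CPM. Of 15 tested transcription factors of dental mesenchyme 4 rose and 0 fell, with a median of 0.48, and 1 rose without libraries 1 and 2 of batch B. Pax9, needed for tooth formation, rose by 1.68 (1.53 without those libraries, adjusted p = 0.170). Msx2, a homeobox gene of both dental mesenchyme and epithelium, rose by 1.04. Msx1 differed by 0.25 ± 0.12 (SE; adjusted p = 0.29) and Runx2 by 0.11 ± 0.19 (SE).

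Dental papilla and pulp genes were higher in batch B. The list took 0.192% to 0.229% of counts in batch A (median 0.213%) and 0.428%, 0.403%, 0.476% and 0.446% in batch B, 2.07-fold higher on the means. Of 13 tested members 5 rose and 0 fell, with a median of 0.50, and the number called was 3 without library 3 and also without libraries 1 and 2 of batch B. Smoc2 (chr17:14279506-14404790), a secreted calcium-binding matrix protein, was at 44.6 to 149 CPM in batch A (median 84.9) and at 755, 754, 797 and 684 CPM in batch B. Every batch B library was several times the highest of batch A (log2 3.06 ± 0.29, SE; adjusted p = 2.3e-05).

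Sfrp2, a secreted modulator of Wnt signalling, was at 356 to 474 CPM in batch A (median 419) and at 1906, 1714, 1778 and 1863 CPM in batch B (log2 2.09 ± 0.09, SE; adjusted p = 4.8e-09). Shisa2, which holds back Wnt and FGF receptors in the cell, rose by 2.22 and was chosen after its values were seen. The hedgehog receptor and target Ptch1 and the hedgehog effector Gli1 were not called, with differences of 0.35 ± 0.14 and 0.08 ± 0.17 (SE). Igfbp5, a binding protein of insulin-like growth factors, rose by 0.50, and without library 3 of batch B the value was 0.35 (adjusted p = 0.064). Col8a1, a short-chain collagen, and Spock1, a matrix proteoglycan, are in no list but were among the 12 highest named genes, with differences of 2.90 and 2.48. Col8a1 went from 91.7 to 157 CPM in batch A to 931, 963, 950 and 806 CPM in batch B.

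In the dental follicle list 2 of 12 tested members rose (Acta2 and Igfbp3, the latter by 0.64) and 0 fell, with a median of 0.34, and 0 were called without libraries 1 and 2 of batch B. Over all tested genes 2.68% were called higher with the 10 libraries. Periostin (Postn), the matrix protein of follicle and periodontal ligament, differed by -0.06 ± 0.14 (SE). In the cartilage list 2 of 8 tested members rose (Col9a2, 1.30, and Sox9, 0.93) and 0 fell, and only 1 was called without library 1 or library 4 of batch B. The aggrecan and type II collagen genes Acan and Col2a1, chosen after their values were seen, stayed at or under 17.3 CPM in every library of both batches.

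Several bone matrix genes were lower in batch B. The osteoblast list took 0.400% to 0.632% of counts in batch A (median 0.523%) and 0.228%, 0.229%, 0.347% and 0.236% in batch B. The ratio of batch B to batch A was 0.508 on the means, and 0.834 without Spp1. Of 12 tested members 3 fell and 2 rose (0 rose without library 1 or library 2 of batch B, and 1 without library 3), and the list median was 0.31, so that the median and the summed share differ in sign. Spp1 (osteopontin), an acidic phosphoprotein of bone that macrophages also secrete, was at 2703 to 4908 CPM in batch A (median 3832) and at 1240, 1364, 2448 and 1435 CPM in batch B. It fell by 1.21 on the log2 scale, and without libraries 1 and 2 of batch B the value was -0.94 (adjusted p = 0.058).

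Ibsp (bone sialoprotein) was at 336 to 560 CPM in batch A (median 529) and at 174, 175, 201 and 190 CPM in batch B (log2 -1.44 ± 0.15, SE; adjusted p = 4.9e-05). Mepe, a phosphoprotein of osteocytes, was at 29.7 to 164 CPM in batch A (median 49.98) and at 0.443, 0.142, 2.06 and 0 CPM in batch B (log2 -6.78 ± 0.89, SE). Sp7, the osteoblast and odontoblast transcription factor, rose by 0.93, a call lost without library 1 (0.82, adjusted p = 0.090) or library 2 (0.82, adjusted p = 0.090) of batch B. Alpl, the phosphatase of mineralising cells, differed by 0.33 ± 0.15 (SE; adjusted p = 0.24). The osteoclast list had 2 of 11 tested members lower, the cathepsin gene Ctsk (-1.10) and the acid phosphatase gene Acp5 (-1.84), and 0 higher. Acp5 went from 198 to 308 CPM in batch A (median 244) to 72.0, 66.5, 50.6 and 88.8 CPM in batch B, while Mmp9 and Ckb of the same list overlapped between the batches.

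Genes of the general epithelial list formed a small part of these libraries, and that part was larger in batch B. The ameloblast and enamel matrix list, described below, took a smaller mean share in batch B (0.0765%) than in batch A (0.102%). The general epithelial list took 0.0398% to 0.0542% of counts in batch A (median 0.0456%) and 0.0731%, 0.0679%, 0.0675% and 0.0699% in batch B, compared with means of 0.676% and 0.840% in the Sox2-positive libraries of the same batches. Of 24 tested members 22 had positive log2 differences, 3 were called higher and 0 lower, and the median was 0.86. Krt5, the basal layer keratin, was at 14.2 to 35.7 CPM in batch A (median 24.5) and at 65.4, 78.0, 85.4 and 86.3 CPM in batch B (log2 1.65 ± 0.27, SE; adjusted p = 0.0020). The call count was 1 without library 1 and also without libraries 1 and 2 of batch B.

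Krt8, a keratin of simple epithelia, rose by 2.04. Its call was lost without library 1 (2.03, adjusted p = 0.056) or library 2 (2.00, adjusted p = 0.060) of batch B. Krt17 rose by 1.47 with an adjusted p of 0.044. It stayed called, with an adjusted p under 0.05, in only 2 of the 10 fits with a library left out. Those were the fits without library 1 of batch A and without library 2 of batch B. The partner of Krt5, Krt14, differed by 0.39 ± 0.19 (SE; adjusted p = 0.28), and the adhesion gene Epcam by 0.31 ± 0.31 (SE; adjusted p = 0.66). Among transcription factors of dental epithelium 2 of 12 tested genes rose, Msx2 and Dlx3 (0.84), both of which dental mesenchyme also expresses, and 0 fell. Without libraries 1 and 2 of batch B 1 of these was called. In the fit of all 10 libraries 2.68% of tested genes were called higher.

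Of 7 tested genes of the ameloblast and enamel matrix list 2 fell and 0 rose, and 4 of the 7 had negative differences. Without Amelx the list's share of counts in batch B was 0.987 times that in batch A, against 0.752 with it. Amelx (amelogenin), the main enamel matrix protein, was at 515 to 701 CPM in batch A (median 645) and at 382, 410, 454 and 463 CPM in batch B, without overlap (log2 -0.57 ± 0.11, SE; adjusted p = 0.0065). Enam (enamelin) fell by 1.47, and Ambn (ameloblastin) differed by 0.25 ± 0.15 (SE; adjusted p = 0.40). Without library 1 of batch B the value of Enam was -1.36 (adjusted p = 0.054), and without libraries 1 and 2 neither gene was called (Amelx -0.46, adjusted p = 0.129; Enam -1.47, adjusted p = 0.150).

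Mitochondrially encoded genes and genes of the early response to dissociation also moved with the batch. Of 13 mitochondrially encoded protein genes 11 fell and 0 rose, and their share of counts went from 3.14% ± 0.246 (SD, n = 6) to 1.42% ± 0.297 (SD, n = 4). The members were not lowered alike: the cytochrome oxidase gene mt-Co2 fell by 0.62 and mt-Atp8 by 2.50, while mt-Nd3 differed by 0.03 ± 0.15 (SE), a gene chosen after its value was seen. mt-Co1 was at 413 and 393 CPM in libraries 1 and 2 of batch B, at 1389 and 1132 CPM in libraries 3 and 4, and at 2825 to 4234 CPM in batch A, and was also chosen after its values were seen. Of 28 tested immediate early and stress genes 10 fell (6 without libraries 1 and 2 of batch B) and 1 rose, with a median of -1.02. The latter was Klf4 (0.85), whose call held only without library 5 or 6 of batch A or library 3 of batch B among the 10 fits with a library left out.

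Fos, the transcription factor induced within minutes of stimulation, was at 167 to 267 CPM in batch A (median 212) and at 16.4, 18.5, 14.1 and 36.3 CPM in batch B (log2 -3.31 ± 0.29, SE; adjusted p = 1.0e-05). Ier2, another early response gene, fell by 1.71, and the chaperone genes Hspa8 and Dnaja1 differed by -0.18 ± 0.09 and 0.15 ± 0.16 (SE). The part of these 2 lists in the differences of the cell type lists was not tested. Xist fell by 0.79, and the 4 Y-linked genes were not called, with differences between 0.50 (Eif2s3y) and 2.05 (Kdm5d). The antisense gene Tsix overlaps Xist, so reads of the pair cannot be told apart without strand.

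Other cell types left few traces. Over all tested genes 2.68% were called higher and 3.45% lower, and a short list exceeds these shares with 1 call. Of the skeletal muscle and melanocyte lists 5 and 2 members passed the filter and 0 were called. In the Schwann cell list 1 of 10 tested genes rose, Pmp22 (1.12), which fibroblasts also express, while the defining gene Sox10 did not pass the filter. In the neuron list 1 of 4 rose (Tubb3, 1.10), and in the cell cycle list 2 of 30 fell (Aurkb, -1.02, and Cdk1, -0.75). The call of Tubb3 was lost without library 3, 5 or 6 of batch A and 1, 2 or 4 of batch B, that of Aurkb without 2, 3, 4 or 6 of batch A and 1, 3 or 4 of batch B, and that of Cdk1 without 1, 3, 4 or 6 of batch A and any of batch B. The cell cycle list, with 6.67% of tested members called against 6.14% of all tested genes, had a median of -0.07. Of 12 tested odontoblast genes 2 rose, Sp7 among them, and 0 fell; 1 was called without library 1, 3 or 4 of batch A or library 2 or 4 of batch B, and 0 without library 1 of batch B. Of 15 reported incisor stem cell markers 3 rose (Celsr1, 1.47, Igfbp5 and Acta2) and 1 fell (Abcg2, -1.38), of 14 genes of the stratum intermedium and stellate reticulum 2 rose (Notch2, 0.59, and Igfbp5) and 1 fell (Fabp4, -1.85, also the 1 adipocyte gene called), and of 18 hypoxia and glycolysis genes 1 rose (P4ha1, 1.21) and 1 fell (Aldoa, -0.62). The call of Abcg2 was lost without library 2, 3 or 6 of batch A and any of batch B, that of Fabp4 without 4 or 6 of batch A and 1, 2 or 3 of batch B, and that of P4ha1 without library 1 of batch B. In the interferon list 1 of 13 fell (Bst2, -2.04, lost without library 2 of batch B; 2 were called without library 4 of batch A) and in the cornification list 0 of 2 were called. Without libraries 1 and 2 of batch B, 0 genes were called in the lymphatic, Schwann cell, neuron, cell cycle, odontoblast, stem cell, stratum intermedium, hypoxia, interferon and sex-linked lists. In that fit 276 of 16679 tested genes were called in all, so 0 in a short list says little about that list.

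The same contrast was made in the Sox2-positive cells of the same batches. In a model of all 23 libraries, batch B and batch A differed in the Sox2-positive cells at 1785 of 17190 genes (10.4%). Of these, 833 were higher in batch B and 952 lower. The interaction, the difference in Sox2-negative minus that in Sox2-positive cells, was called for 1210 genes (7.04%). Of the 408 genes higher in batch B in Sox2-negative cells, 131 were also called higher in Sox2-positive cells, 33 were called in the opposite direction and 244 were not called, and 178 had a called interaction. Of the 525 lower genes the numbers were 119, 26, 380 and 197. Both sets were picked by their Sox2-negative difference, which is part of the interaction. Interaction shares above 7.04% in them follow in part from that choice.

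The 4 adult globins took means of 0.000456% and 0.00043% of counts in the Sox2-positive libraries of batches A and B, with no gene above 5.05 CPM and several libraries at 0, and each had a called interaction (Hba-a2, 4.91, adjusted p = 2.4e-05). The endothelial median was 0.24 in Sox2-positive cells against -1.95 in Sox2-negative cells, with 7 called interactions, all lower in the negative sort. Neutrophil and mast cell medians were 0 in Sox2-positive cells, where the mean shares of these lists were no more than 0.00242% of counts. The interaction was not called for most of their members, Tpsb2 among them (-4.81, adjusted p = 0.96). The dental papilla list also took a larger share in batch B of the Sox2-positive cells (means 0.117% in batch A and 0.152% in batch B, median difference 0.34). The follicle list went from 0.217% to 0.29% there, with a median of 0.09. Col8a1 went in opposite directions, rising in Sox2-negative and falling by 2.24 in Sox2-positive cells (interaction 5.17, adjusted p = 2.1e-06).

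Fos fell in both populations, by 3.31 and by 6.95, and the interaction was 3.66 (adjusted p = 3.1e-08), the fall being smaller in the negative sort. For mitochondrially encoded genes the Sox2-positive median was 0.11, and 11 of 13 interactions were called, all lower in Sox2-negative cells. Amelx fell by 0.57 in Sox2-negative and by 5.30 in Sox2-positive cells (interaction 4.75, adjusted p = 3.7e-16). The pseudogene Rps2-ps10, whose reads may come from its parent gene, rose by 2.55 and 2.29 in the negative and positive cells.

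**Figure D4:**
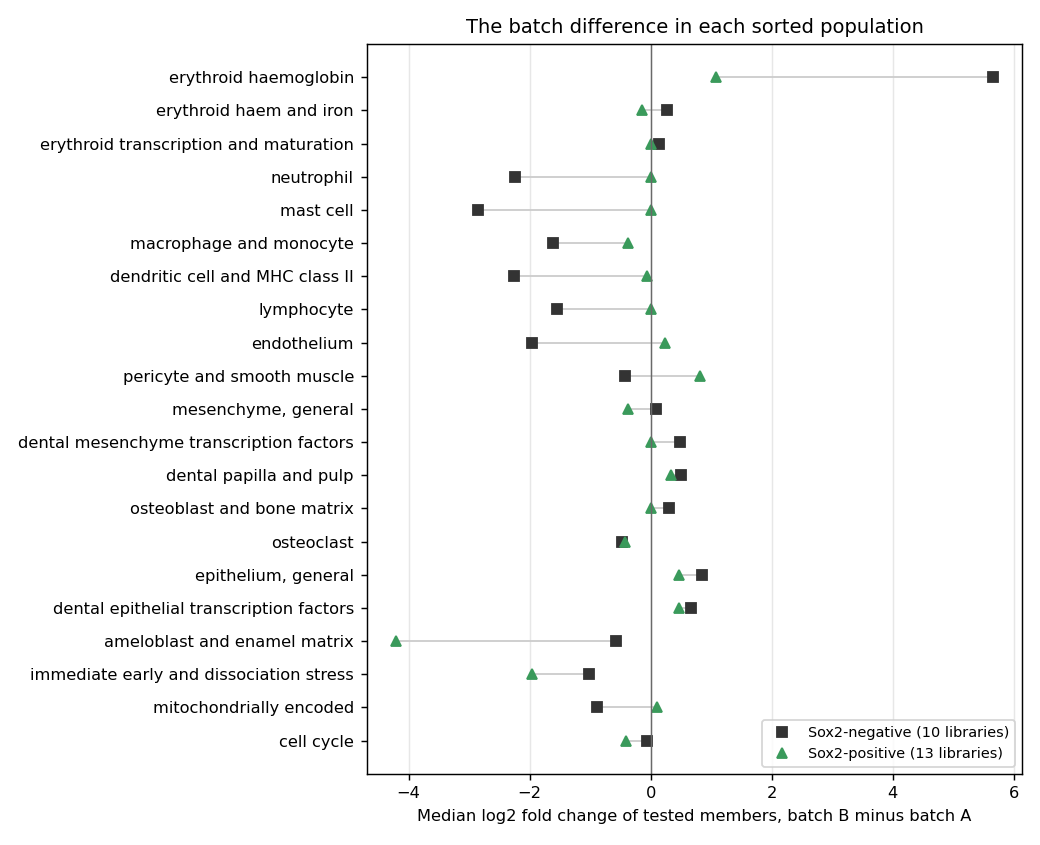
Median log2 fold change (batch B minus batch A) of the tested members of 21 gene lists in Sox2-negative (black squares, 10 libraries) and Sox2-positive cells (green triangles, 13 libraries). The haemoglobin, neutrophil, mast cell and endothelial medians are 5.65, -2.24, -2.86 and -1.95 in Sox2-negative cells and 1.08, 0, 0 and 0.24 in Sox2-positive cells, where no globin exceeded 5.05 CPM, while the early response list is below 0 in both populations.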

How the data were processed

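RNA-seq estimated counts for 54347 genes in 23 columns were deposited by the authors. Per the submitters' processing notes, FastQC, Trimmomatic, Salmon and the mm10 build were used; versions and strand settings are not given in the sources used here. Estimated counts were rounded. Symbols and GRCm38 positions came from GENCODE M21 by Ensembl identifier without version (54094 matched, 99.5%). Groups came from the labels.

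Sox2-negative batch B was compared with batch A by edgeR 4.0.16 (R 4.3.3): filterByExpr on the 10 libraries, TMM scaling, quasi-likelihood F test, Benjamini-Hochberg adjustment over the tested genes, called under 0.05. The standard error is the absolute log2 difference divided by the square root of F. Sox2-positive and interaction values came from a model of 4 group means over 23 libraries. CPM used TMM-scaled totals, and list shares used plain totals. A floor of 3 counts, the limit taken for detection, equal 0.314 to 0.808 CPM, and cover counting error only. Every pair of the 10 Sox2-negative libraries differed by more than sampling noise (lowest chi-square over its degrees of freedom, 15.3). The smallest p of the exact permutation tests was 0.00476.

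Marker lists and members were chosen with earlier results of these data known, and lists carry no test. Named genes were the 12 highest and 12 lowest differences among called, non-overlapping genes with a mean of at least 20 CPM (predicted, mitochondrial and sex-linked genes left out), in each list the 4 with the highest mean CPM and the called extremes, Sox2 and the sex-linked genes. Some genes that met this rule are not reported here; they remain in the counts and medians of their lists.

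On simulated counts for 15201 genes, the Sox2-negative fit recovered 8 of 50 genes changed by 1 on the log2 scale, 45 of 50 at 2, 43 of 50 at 3 and 50 of 50 at 5, with 4 false calls. Alternatives were DESeq2 1.42.0, limma-voom (limma 3.58.1), other scalings and filters, thinning, removal of erythroid genes, the 23-library model, a replicate block and libraries left out.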

Additional observations from a re-analysis of the deposited data

Results flagged for a closer look

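In 6 of 100 groups of libraries examined, a single library lay far from the others of its batch, where chance gives about 1 in 20. Library 3 of batch B held 0.347% of counts in the osteoblast and bone matrix list, the highest of its batch. Library 4 of batch A held 0.163% in the mast cell list, and the chymase gene Mcpt4 was at 137 CPM in the same library. The related chymase Cma1 was at 360.4 CPM in library 3 of batch A. Chil3 was at 0.111 CPM in library 1 of batch B, where the other 3 were at 0, but this is 1 count, under the detection limit of 3 counts. Spock1 was at 45.7 CPM in library 3 of batch B, the lowest of its batch.

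The difference between batches was not the same in Sox2-negative and Sox2-positive cells for 1210 of 17190 genes (7.04%) by the interaction test. Of 23 of the highest and lowest named genes, 13 were among these. The 23 were picked for extreme Sox2-negative differences, which are part of the interaction, so a share above 7.04% follows in part from that choice. The interaction was positive for 10 of the 13. It was 5.71 for Hba-a1, 4.91 for Hba-a2, 3.89 for Hbb-bs and 4.29 for Hbb-bt, the adult globins. The other red cell genes with a called interaction were Alas2 (5.62) and Ube2l6 (2.25). It was 4.95 for Tent5c, a poly(A) polymerase, 5.17 for Col8a1, 2.29 for Smoc2 and 2.46 for Spock1. Camp of the neutrophil list, Cma1 of the mast cell list and Gngt2, which is in no list, had negative values of -5.13, -7.17 and -5.53. In Sox2-positive cells the mean shares of the neutrophil and mast cell lists were no more than 0.00242% of counts. Those of the haemoglobin list were no more than 0.000456%. The interactions of genes in these 3 lists thus rest on Sox2-positive values near or under the detection limit.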

How the results depend on the processing

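No gene called in Sox2-negative cells changed sign under any alternative. Against 933 genes called in Sox2-negative cells (408 higher, 525 lower), DESeq2 called 2092 (848 and 1244), limma-voom 1644 (829 and 815), the model of 23 libraries 1924 (1005 and 919), and the fit without libraries 1 and 2 of batch B 276 (99 and 177). Total-count scaling called 267 higher. Of the 933 genes, 932 kept their call with DESeq2, 857 in the 23-library model and 252 without those libraries. In Sox2-positive cells limma-voom called 3313 (1687 and 1626) in place of 1785, and DESeq2 called 872 interactions lower in place of 484. Libraries left out singly gave 519 to 844 Sox2-negative calls (214 to 383 higher, 305 to 477 lower), 1497 to 1892 Sox2-positive calls and 938 to 1254 interactions. The cause of these changes was not tested, beyond the smaller number of libraries where some were left out.

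A replicate block over same-numbered libraries called 415 genes (171 higher, 244 lower), and 536 interactions (329 and 207). Over 8709 genes, the deviations of same-numbered Sox2-negative libraries of the 2 batches correlated at -0.00137, 0.0339, 0.0183 and -0.00706. Here 2 of 4 libraries correlated best with their own number. The batches came from different mice, so this cannot show whether same-numbered libraries within a batch belong together. Between Sox2-negative and Sox2-positive libraries of batch B the values were 0.0823, 0.0681, 0.0389 and 0.00473. Libraries 1 and 2 were best with their own number there. In both populations of batch B these libraries also differed from the later ones. In batch A the values lay between -0.0409 and 0.00988, and no library was best with its own number. Whether numbers mark pairs within a batch was not settled.

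Without its most counted member, the log2 ratio of a list's share (batch B over batch A) was 0.67 for dental papilla (1.05 with it), 0.12 for follicle (0.29), -0.26 for osteoblast (-0.98), 0.29 for haem and iron (0.77), -0.48 for red cell membrane (0.10), -3.25 for mast cell (-3.77), -1.40 for macrophage (-1.81), -0.94 for osteoclast (-0.56), -0.19 for pericyte (-0.56), 0.85 for epithelium (0.60), -0.02 for ameloblast (-0.41) and -0.93 for early response (-0.70, and -0.62 with erythroid genes removed from the total). It turned to -0.24 for Schwann cell, -0.15 for neuron and 0.04 for sex-linked genes.

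Thinned to the smallest total, the libraries differed by 219 genes at 5 counts (adjusted p = 0.438). The batch difference in genes with at least 1 count was 1558 and lay between 933 and 2069 with single libraries left out. A further alternative, chosen after seeing the data, removed erythroid genes and CT010467.1 before total-count scaling and called 926 genes. Haemoglobin, mast cell, neutrophil and lymphocyte markers in Sox2-positive cells lay near or under the detection limit in many libraries. The simulation, in which only genes above a minimum mean level were changed, recovered 16% of changes of 1 on the log2 scale. Changes of that size were mostly missed there. In the data 586 of the 933 called genes differed by more than 1 and the rest by less, so the rate need not hold for every gene.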

Other observations

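A family of 10 predicted genes, chosen after their values were seen (Gm10800, Gm10801, Gm10715, Gm10717, Gm10718, Gm10719, Gm10721, Gm11168, Gm21738 and Gm17535), took 1.55% ± 0.517 (SD, n = 6) of counts in batch A and 0.392% ± 0.236 (SD, n = 4) in batch B of the Sox2-negative cells. In Sox2-positive cells the shares were 0.194% ± 0.0841 (SD, n = 6) and 0.0715% ± 0.0282 (SD, n = 7). Between 35.8% and 92.1% of the 31-base words in each of these genes occurred in another of the 10, so their separate values are uncertain.

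Ulk4, a kinase-like gene chosen after its values were seen, was at 1.58 to 162 CPM in batch A (median 17.8) and at 1586, 1406, 104 and 366 CPM in batch B. Libraries 1 and 2 of batch B were the high ones, and library 3 lay within the range of batch A (log2 4.51 ± 0.97, SE; adjusted p = 0.013).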
